A study of Homo sapiens with 38 samples.

Results

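The genes of glucose uptake, glycolysis and the fates of pyruvate were examined in stimulated Jurkat cells, a human T-cell leukaemia line. The set held 32 named genes among 20037 protein-coding gene records. For each gene, the regions listed for GATA3, BHLHE40 and the acetylated histone mark H3K27ac were taken when they touched the gene's RefSeq record or the 5 kb on either side of it. The series held 38 chromatin immunoprecipitation sequencing (ChIP-seq) samples in 19 groups of 2. The 3 groups used were wild-type Jurkat cells with a control lentivirus (Ctrl_LV), all stimulated with 50 ng/ml PMA and 500 ng/ml ionomycin, and immunoprecipitated for 1 of the 3 targets. PMA and ionomycin together imitate signalling from the T-cell receptor. The sample labels gave 5 h of stimulation and the treatment protocol 2 h, and this was not resolved. What the control lentivirus carried is not given in the sources used here. The remaining 16 groups (not analysed here) are labelled as stimulated too and include edited and BHLHE40 over-expressing cells, so the values below come from 1 condition.

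Each list stood for a group of 2 samples as a whole, and no value per sample was used. No measurement below therefore has a spread between replicates, and no difference was tested. The depth of the samples is unknown. The signal value, the authors' enrichment per region, was compared only within a list, and its reference is not given in the sources used here. Markers of the cell type were checked first. Regions of H3K27ac with a −log10 q of at least 5 lay within 1 kb of a listed start in 51.3% of 15842 protein-coding genes. They did so in 9 of the 9 T-cell and T-cell leukaemia genes that have such a start, CD3D and TAL1 among them. The same held for 0 of 3 B-cell, 0 of 4 myeloid, 0 of 1 natural killer, 0 of 1 erythroid and 0 of 1 stromal or epithelial genes. Genes without a listed start, such as CD3E, CD3G, CD5 and CD7, were not counted.

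Glucose enters the cell through transporters of the SLC2A family, is phosphorylated by hexokinase and is split and oxidised to pyruvate. Pyruvate is then reduced to lactate and exported, or passed to the mitochondrion by pyruvate dehydrogenase, which the PDK kinases switch off. T cells are known to raise glucose uptake and lactate output on activation, and HIF1A is a known activator of many of these genes. BHLHE40 is a basic helix-loop-helix factor that recognises the E-box CACGTG, and GATA3 is a T-lineage zinc finger factor that recognises GATA sites. H3K27ac marks active promoters and enhancers.

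At 6 members a BHLHE40 summit and the hexamer known to be recognised by this factor lay in the same promoter sequence. RefSeq promoter sequences (GRCh38.p14) were listed for 29 of the 32 genes, as 250 bases before and 50 bases after each listed start. The 250 bases before the start are shown 5′ to 3′ on the gene's strand for the 5 members with the strongest BHLHE40 summit in a promoter that has CACGTG, and for the 2 strongest that lack it. Capitals mark CACGTG, which reads the same on both strands.
GAPDH (chr12:6535014-6535263, plus strand): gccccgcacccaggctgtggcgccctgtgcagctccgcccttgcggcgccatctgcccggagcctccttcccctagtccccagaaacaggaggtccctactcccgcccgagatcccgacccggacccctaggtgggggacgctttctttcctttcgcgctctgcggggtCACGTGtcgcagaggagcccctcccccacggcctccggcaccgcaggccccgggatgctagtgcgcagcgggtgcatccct
LDHA (chr11:18394313-18394562, plus strand): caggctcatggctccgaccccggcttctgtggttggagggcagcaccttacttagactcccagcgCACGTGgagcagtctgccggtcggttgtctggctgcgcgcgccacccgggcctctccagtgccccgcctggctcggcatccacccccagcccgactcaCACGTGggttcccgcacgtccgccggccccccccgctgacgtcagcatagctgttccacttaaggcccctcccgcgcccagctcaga
PDK2 (chr17:50095101-50095350, plus strand): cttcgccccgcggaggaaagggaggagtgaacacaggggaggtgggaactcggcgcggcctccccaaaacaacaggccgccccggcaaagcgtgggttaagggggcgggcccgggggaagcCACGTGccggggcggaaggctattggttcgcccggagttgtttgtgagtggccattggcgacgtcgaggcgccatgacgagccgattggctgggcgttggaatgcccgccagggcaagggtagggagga
HK2 (chr2:74834920-74835169, plus strand): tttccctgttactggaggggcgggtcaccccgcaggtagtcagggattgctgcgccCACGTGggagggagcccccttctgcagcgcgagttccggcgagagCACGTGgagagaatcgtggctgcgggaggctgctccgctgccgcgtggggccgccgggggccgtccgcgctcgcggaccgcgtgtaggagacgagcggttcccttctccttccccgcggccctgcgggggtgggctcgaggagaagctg
PFKFB3 (chr10:6202682-6202931, plus strand): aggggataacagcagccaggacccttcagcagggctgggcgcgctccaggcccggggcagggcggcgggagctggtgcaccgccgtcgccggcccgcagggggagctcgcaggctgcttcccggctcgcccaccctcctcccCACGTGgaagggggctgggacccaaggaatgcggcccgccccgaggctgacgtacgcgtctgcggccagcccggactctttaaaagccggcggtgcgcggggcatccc
PKM (chr15:72231191-72231440, minus strand): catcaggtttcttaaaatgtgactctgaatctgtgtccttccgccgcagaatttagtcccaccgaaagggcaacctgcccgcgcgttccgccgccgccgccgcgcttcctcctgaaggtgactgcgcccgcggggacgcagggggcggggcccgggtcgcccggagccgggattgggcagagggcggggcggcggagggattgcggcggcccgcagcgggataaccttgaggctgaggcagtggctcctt
PGK1 (chrX:78103998-78104247, plus strand): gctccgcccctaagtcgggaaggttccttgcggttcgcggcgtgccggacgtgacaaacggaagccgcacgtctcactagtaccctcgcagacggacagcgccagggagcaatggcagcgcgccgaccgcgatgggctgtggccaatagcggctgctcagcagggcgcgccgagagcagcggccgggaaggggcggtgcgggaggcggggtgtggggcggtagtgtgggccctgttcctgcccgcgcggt
The LDHA and HK2 stretches each held 2 copies, and those of GAPDH, PDK2 and PFKFB3 held 1. PKM and PGK1, whose BHLHE40 signal values of 66.3 and 31.6 were the highest of the set, had none in these stretches.

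Distances were taken from the BHLHE40 summit to the centre of the nearest copy and rounded down. They are short in part by choice, since both had to lie in 1 promoter sequence of 300 bases. In HK2, the hexokinase induced in proliferating cells, the distance was 11 bp. It was 28 bp in LDHA, the lactate dehydrogenase subunit favoured in lactate formation, and 33 bp in PDK2, an inhibitory kinase of pyruvate dehydrogenase. It was 48 bp in GAPDH, 62 bp in PFKFB3 and 115 bp in ALDOC, the brain-type aldolase. The member median of 40 bp over 6 genes was near the median of 44 bp over the 730 protein-coding genes with a summit and a copy in 1 promoter sequence. The spacing in members was thus near that of other genes with both.

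The share of promoters with the hexamer was higher among members, which was described and not tested. CACGTG was present in a promoter sequence of 8 of the 29 members, against 10.9% of 15842 protein-coding genes and 7.26% of all 35116 listed promoter sequences. A BHLHE40 summit lay in a promoter sequence of 16 members, against 32.9% of the protein-coding genes. Of those 16, 7 had the hexamer: HK2, PFKFB3, ALDOA, ALDOC, GAPDH, LDHA and PDK2. The background among protein-coding genes with a summit was 15.8%. Of the 13 members without a summit 1 had it, PDHB, against 8.49%. Members also had more listed starts, 2.03 per gene against 1.40, which gives each more sequence to be searched. Counted per sequence, 6 of 17 member promoters with a summit held CACGTG (35.3%, against 13.6%), and 8 of 59 of all member promoters did (13.6%, against 8.34%). In ALDOA, the muscle and ubiquitous aldolase, the summit and the hexamer belonged to different listed promoters.

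Other short words were searched on both strands. ACGTG, which lies within CACGTG and is the core recognised by HIF factors, was in promoters of 18 of 29 members against 28.5% of protein-coding genes. GCGTG was in 21 of 29 against 50.4%, and GGGCGG, the GC box, in 28 of 29 against 64.3%. GATAA was in 8 of 29 against 23.1%, and TCACGTGA, a longer E-box that contains CACGTG, was in none against 1.65%. The member promoters were also richer in G and C, with a median of 68.7% over 59 sequences against 62.3% over 22175. The part of base composition in the counts of GC-rich words was not tested. A match describes the letters and is not a measured site.

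Across the gene windows, all 3 kinds of region were more common than over protein-coding genes at large. BHLHE40 regions were present at 31 of the 32 members (96.9%), against a background of 61.6%. The exception was PFKL, the liver-type phosphofructokinase. GATA3 regions were present at 22 members (68.8%), against 48.0%. H3K27ac was present at all 32, against 78.4%, and regions of all 3 lists were present at 22 members, against 41.6%. The 10 members without GATA3 were SLC2A3, GPI, PFKL, PFKP, PFKFB2, ALDOC, GAPDH, ENO2, SLC16A3 and PDK2.

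**Figure D1:**
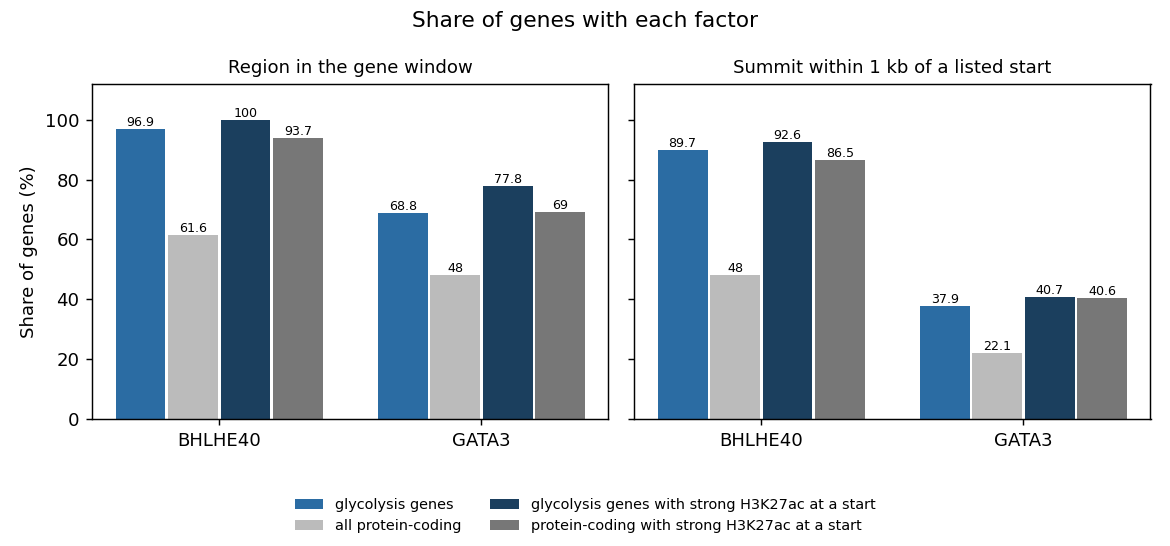
Share of genes (percent) with a BHLHE40 or GATA3 region in the gene window (left) and with a summit within 1 kb of a listed start (right), for members and for all protein-coding genes, each also restricted to genes with strong H3K27ac at a start. Members exceed all protein-coding genes in each pair of bars, but with strong H3K27ac at a start the GATA3 summit shares are 40.7% and 40.6%.

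Genes with an acetylated start were a closer background. A strong H3K27ac region (−log10 q of at least 5) lay within 1 kb of a listed start of 27 of the 29 members, all but PFKL and ENO2, and of 51.3% of 15842 protein-coding genes. Among the genes with such a start, BHLHE40 was in the window of 27 of 27 members against 93.7%. GATA3 was in 21 of 27 (77.8%) against 69.0%. These shares lie near the background, so nothing is read from them about glycolysis genes as such. The median window length was 36184 bp for members, 34115 bp for all protein-coding genes and 39797 bp for those with acetylated starts. Members held a median of 1 GATA3, 2 BHLHE40 and 4 H3K27ac regions, against 0, 1 and 3 over all protein-coding genes and 1, 1 and 4 over those with acetylated starts. Per 100 kb of window there were 4.25 BHLHE40 regions at members, 1.67 at all protein-coding genes and 2.82 at those with acetylated starts. These densities divide summed regions by summed window length, so long windows weigh most. The part of window length in them was not tested.

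At the gene starts, 26 of 29 members had a BHLHE40 summit and 11 a GATA3 summit. A BHLHE40 summit lay within 1 kb of a listed start in 26 of 29 members (89.7%), against 48.0%, and in 25 of the 27 with strong acetylation (92.6%), against 86.5%. The nearest summits were 0 to 372 bp from the start, with a median of 147 bp, and 16 lay upstream, 9 downstream and 1 at the start. A GATA3 summit was that near in 11 of 29 (37.9%), against 22.1%, and in 11 of 27 (40.7%), against 40.6%. Those 11 lay 79 to 847 bp away, with a median of 326 bp. An H3K27ac summit was within 1 kb in 28 of 29 members, against 56.9%, and an H3K27ac region covered the start itself in 21 of 29 members (72.4%), against 41.7%. Any listed start counted, and members had 2.03 per gene against 1.40 over protein-coding genes, which gives members more places to be counted. The part of this in the shares was not tested. Of the 3 members with no BHLHE40 summit within 1 kb, PGAM1, the phosphoglycerate mutase of most tissues, had a summit of signal 14.9 that lay 3 bp outside the end of its record and 1630 bp upstream of its listed start. PFKFB4 had its only summit 1511 bp upstream, in a region 1864 bp wide that reached over the start, and PFKL had none.

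**Figure D2:**
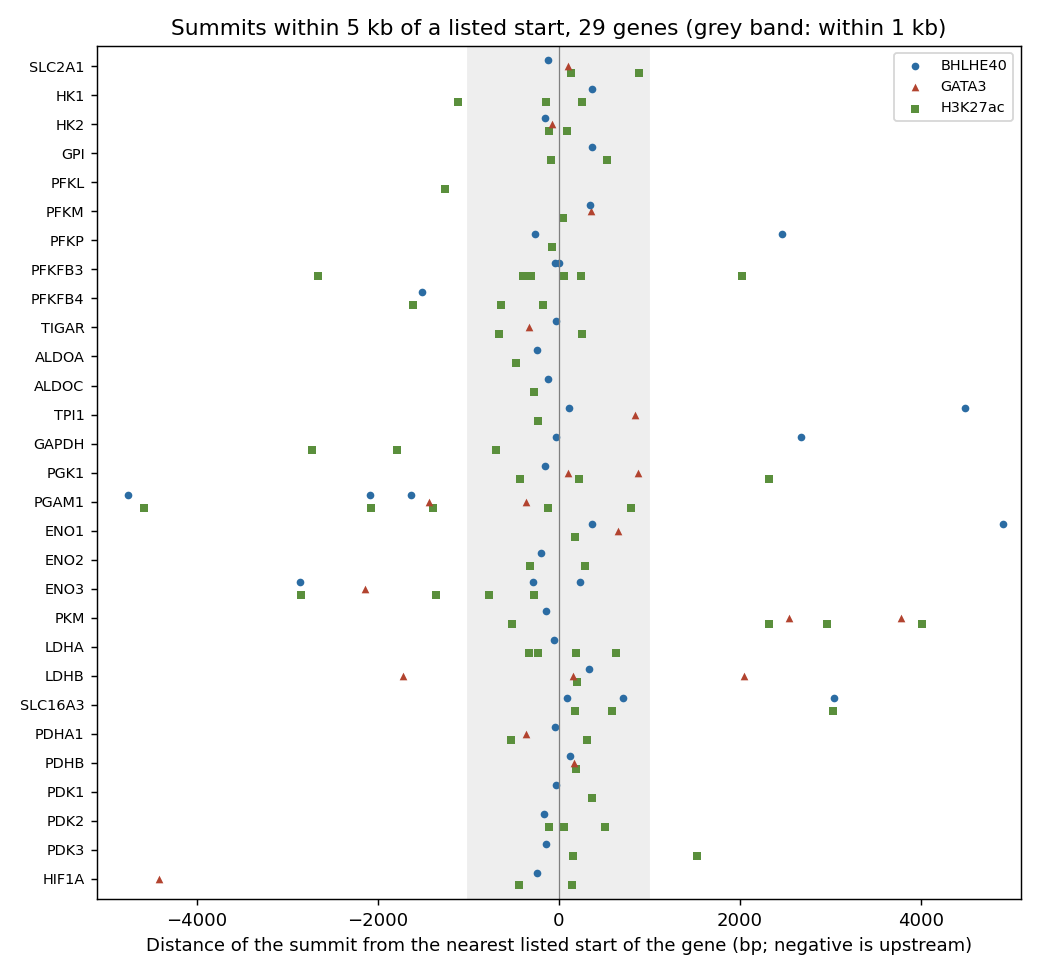
Summits of the 3 lists within 5 kb of a listed start in the 29 members that have one, by distance (bp) from the gene's nearest listed start, with negative values upstream and the grey band marking 1 kb. The nearest BHLHE40 summits (circles) of 26 genes lie within 372 bp of the start, while the nearest GATA3 summits (triangles) of 11 genes reach 847 bp.

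The 2 glucose transporters both had BHLHE40 and H3K27ac at the 5′ end, and 1 of them had GATA3. SLC2A1, the main basal glucose transporter, had a BHLHE40 region of signal 18.4 with its summit 114 bp upstream of the start, and 67 bp from the start of the divergent transcript SLC2A1-DT. A weak GATA3 region of signal 5.47 overlapped it, and a second of 8.1 lay beyond the 3′ end. The gene's strongest H3K27ac, of signal 10.2, was within the gene at chr1:42931289-42932659 and overlapped a BHLHE40 region of 9.6. SLC2A3, the high-affinity transporter of neurons and leukocytes, has no entry in the promoter table. Its BHLHE40 regions had signals of 17.5, 286 bp outside the end of its record, and 8.88 inside it. Both overlapped H3K27ac, and no GATA3 region was listed.

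Both hexokinases carried BHLHE40 near the start and GATA3 in the gene body. HK1, the housekeeping hexokinase, had BHLHE40 of signal 15.7 at 371 bp downstream of a listed start, over H3K27ac of 10.6. Farther in, at 25174 bp, GATA3 (17.3) and BHLHE40 (16.2) had summits 2 bp apart, the closest pair of the set. HK2 had BHLHE40 of 14.0 at the promoter shown above, with a weak GATA3 region of 6.36 whose summit was 79 bp away. Its strongest GATA3 region, of 31.3 and ranked 3336 of 29009, lay at 5321 bp downstream, chr2:74840085-74840783, over H3K27ac and with no BHLHE40 region. So in HK2 the strong GATA3 region and the promoter BHLHE40 region were apart. At 14244 bp downstream, weaker GATA3 (7.52) and BHLHE40 (6.51) regions had summits 28 bp apart, over the gene's strongest H3K27ac (9.92).

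The next enzymes, glucose-6-phosphate isomerase and the 3 phosphofructokinases, had 1 GATA3 region at 1 of 4 genes, against 48.0% of protein-coding genes. That gene was PFKM, the muscle-type enzyme, where GATA3 of 14.6 and BHLHE40 of 6.5 had summits 7 bp apart, 349 and 356 bp downstream of the start. PFKP, the platelet type, had BHLHE40 of 16.5 at 266 bp upstream and of 17.1 at 2461 bp downstream. GPI had BHLHE40 of 14.7 at 5656 bp upstream of its listed start and of 8.02 at 372 bp downstream. Its strongest H3K27ac (10.3) and another BHLHE40 region (6.78) lay at the start of the neighbour PDCD2L. PFKL had 1 H3K27ac region of signal 2.80 and −log10 q of 1.51, the weakest top value among the members, 1254 bp upstream, and neither factor.

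The enzymes that set fructose 2,6-bisphosphate, the activator of phosphofructokinase, had 9 BHLHE40 regions at 4 genes and 4 GATA3 regions at 3. PFKFB3, a strongly glycolysis-promoting form, had 5 of those BHLHE40 regions. They ranged from 6.56 to 22.6, and 3 had summits within the gene at more than 1 kb from a start. The strongest, at chr10:6163393-6164231, was 18977 bp downstream and overlapped H3K27ac. The 21.5 region at 36489 bp overlapped GATA3 of 14.7 with summits 23 bp apart, and no H3K27ac region. PFKFB4 had 1 BHLHE40 region of 6.63 and, beyond its 3′ end, 1 GATA3 region of 13.2. PFKFB2, which has no listed start, had BHLHE40 of 6.15 and 5.3, both with summits inside its record. These lay 252 and 1976 bp from the start of its neighbour YOD1, the nearest listed start. TIGAR, a fructose-2,6-bisphosphatase-like protein, had BHLHE40 of 11.0 at 35 bp upstream and GATA3 of 10.8 at 326 bp upstream.

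The steps from aldolase to phosphoglycerate held 14 BHLHE40 regions at 6 of 6 genes and 9 GATA3 regions at 4. GAPDH, the dehydrogenase of the pathway, had BHLHE40 of 27.9 (rank 1565 of 26205) over 4769 bp, with its summit 30 bp upstream of the start, and 14.7 at 2680 bp downstream. No GATA3 region touched its window. PGK1, the first ATP-forming enzyme, was the richest in GATA3, with 5 regions, against a median of 1. Its BHLHE40 region at the start had signal 31.6 (rank 1189), and the GATA3 region there had 11.5. Within each list the place 12389 bp downstream, at chrX:78116289-78117031, differed from the start: GATA3 was higher there (32.5) and BHLHE40 lower (7.84), with summits 16 bp apart. Its weakest GATA3 line, 876 bp downstream of the start, had a signal of 2.7 and a −log10 q of only 1.29.

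The other genes of that stretch had BHLHE40 at moderate signal. ALDOA had BHLHE40 of 15.2 at 243 bp upstream of a listed start, overlapping the strongest H3K27ac region of the set (signal 13.2, −log10 q of 259). Its 1 GATA3 region (11.0) lay 815 bp beyond the record. TPI1, triosephosphate isomerase, had BHLHE40 of 7.9 at 107 bp downstream, overlapping GATA3 of 12.4, and its strongest BHLHE40 region (17.7) was 206 bp from the start of the neighbour SPSB2. ALDOC had BHLHE40 of 5.9 at 122 bp upstream, while its stronger region (9.11) lay 6 bp from the start of PIGS. PGAM1 had GATA3 of 11.9 at 367 bp upstream.

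PKM, the pyruvate kinase of most tissues and tumours, had the strongest region of the set in both factor lists. The BHLHE40 region chr15:72226580-72232564 had signal 66.3, rank 166 of 26205, and was 5985 bp wide. It was the only one of the 69 member regions wider than 5 kb, and there were 95 such regions in the list. Its summit was 137 bp upstream of the start. The GATA3 region chr15:72228064-72232847 had signal 71.9, rank 655 of 29009, with its summit 2539 bp downstream of the start, in the gene. The regions overlapped over most of their length, yet their summits were 2676 bp apart. H3K27ac here had only a modest signal of 3.54 (rank 42396 of 113570) but a −log10 q of 75.5. So PKM stood apart by factor signal and not by acetylation signal.

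The enolases all had BHLHE40, and 2 of the 3 had GATA3. ENO1, the ubiquitous form, had BHLHE40 of 21.4 at 369 bp downstream, GATA3 of 8.51 and H3K27ac of 8.9 with a −log10 q of 151. ENO2, the neuronal form, had BHLHE40 of 9.55 at 193 bp upstream and of 11.9 beyond its 3′ end, with no GATA3, and its H3K27ac within 1 kb of the start reached a −log10 q of only 3.37. ENO3, the muscle form, had BHLHE40 of 25.2 (rank 1958), but that region was 2859 bp upstream of its own listed start and 837 bp from that of PFN1, the profilin gene. The ENO3 GATA3 region of 10.7 was 117 bp from the PFN1 start. At its own start ENO3 had BHLHE40 of 6.11 and 2.73.

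**Figure D3:**
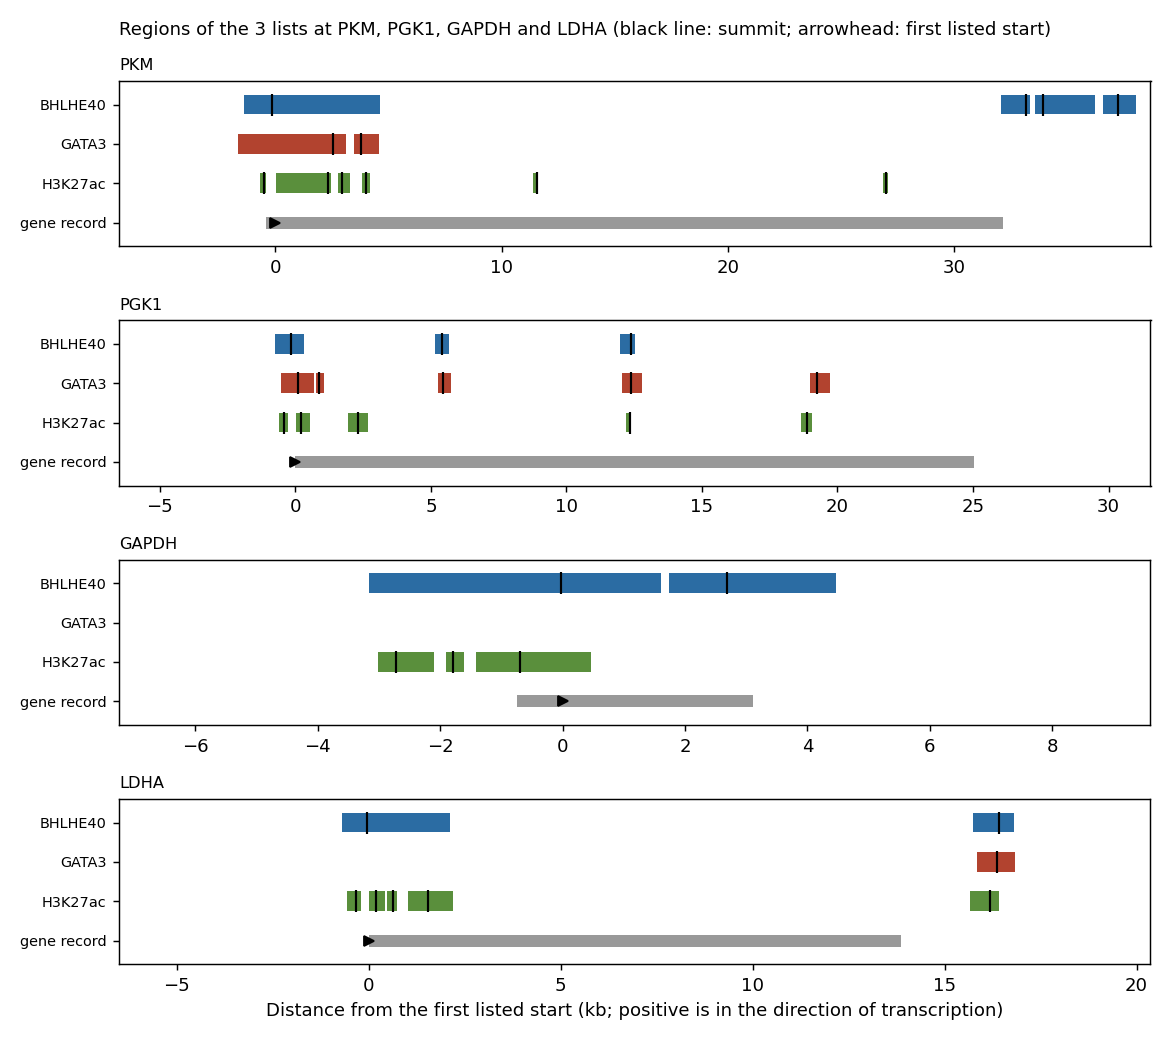
Regions of each list (coloured bars) and their summits (black lines) at PKM, PGK1, GAPDH and LDHA, by distance (kb) from the first listed start in the direction of transcription, with the gene record in grey. A BHLHE40 summit lies within 148 bp of each of the 4 starts, and GAPDH has no GATA3 region.

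The lactate genes all had BHLHE40, and 3 of 4 had GATA3. LDHA had BHLHE40 of 18.7 at 56 bp upstream of the start. Another place lay 2513 bp beyond the gene, nearest to the start of LDHC, at chr11:18410415-18411399. There GATA3 had 24.3 and BHLHE40 8.14, with summits 31 bp apart. LDHB, which favours pyruvate, had BHLHE40 of 17.9 at 336 bp downstream, over H3K27ac of 10.9. It had 3 GATA3 regions of 12.5, 15.9 and 23.3, of which only the weakest met BHLHE40. Of the monocarboxylate carriers, SLC16A1 had 4 GATA3 regions of 6.24 to 16.8 and 1 BHLHE40 region of 10.2, 237 bp outside its record. SLC16A3, the lactate exporter of glycolytic cells, had 4 BHLHE40 regions of 5.01 to 14.8 and no GATA3. The strongest of these was 42 bp from the start of CCDC57.

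Pyruvate dehydrogenase and its kinases had 7 BHLHE40 regions at 5 of 5 genes and 8 GATA3 regions at 4. PDHA1 and PDHB, subunits of the E1 enzyme, had both factors at the start. PDHA1 had GATA3 of 17.9 at 361 bp and BHLHE40 of 14.8 at 39 bp upstream. PDHB had BHLHE40 of 10.5 and GATA3 of 6.99 with summits 40 bp apart, and the second strongest H3K27ac signal of the set (12.9). PDK1, the kinase known to respond to hypoxia, had BHLHE40 of 11.7 at 28 bp upstream and no GATA3 within 1 kb of the start. Its strongest GATA3 region, 39.3 and the second highest of the set, was 134226 bp downstream and nearer to the start of RAPGEF4, 45529 bp away. PDK2 had BHLHE40 of 16.0 at 160 bp upstream and no GATA3, and PDK3 had BHLHE40 of 13.4 at 146 bp upstream.

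HIF1A, the regulator of the set, had the third strongest BHLHE40 region among the members. Its signal was 28.3, rank 1510, and its summit lay 245 bp upstream of the start, over H3K27ac. The 3 GATA3 regions, of 9.98 to 11.7, lay between 4412 and 22770 bp from the start, and none of them overlapped BHLHE40.

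**Figure D4:**
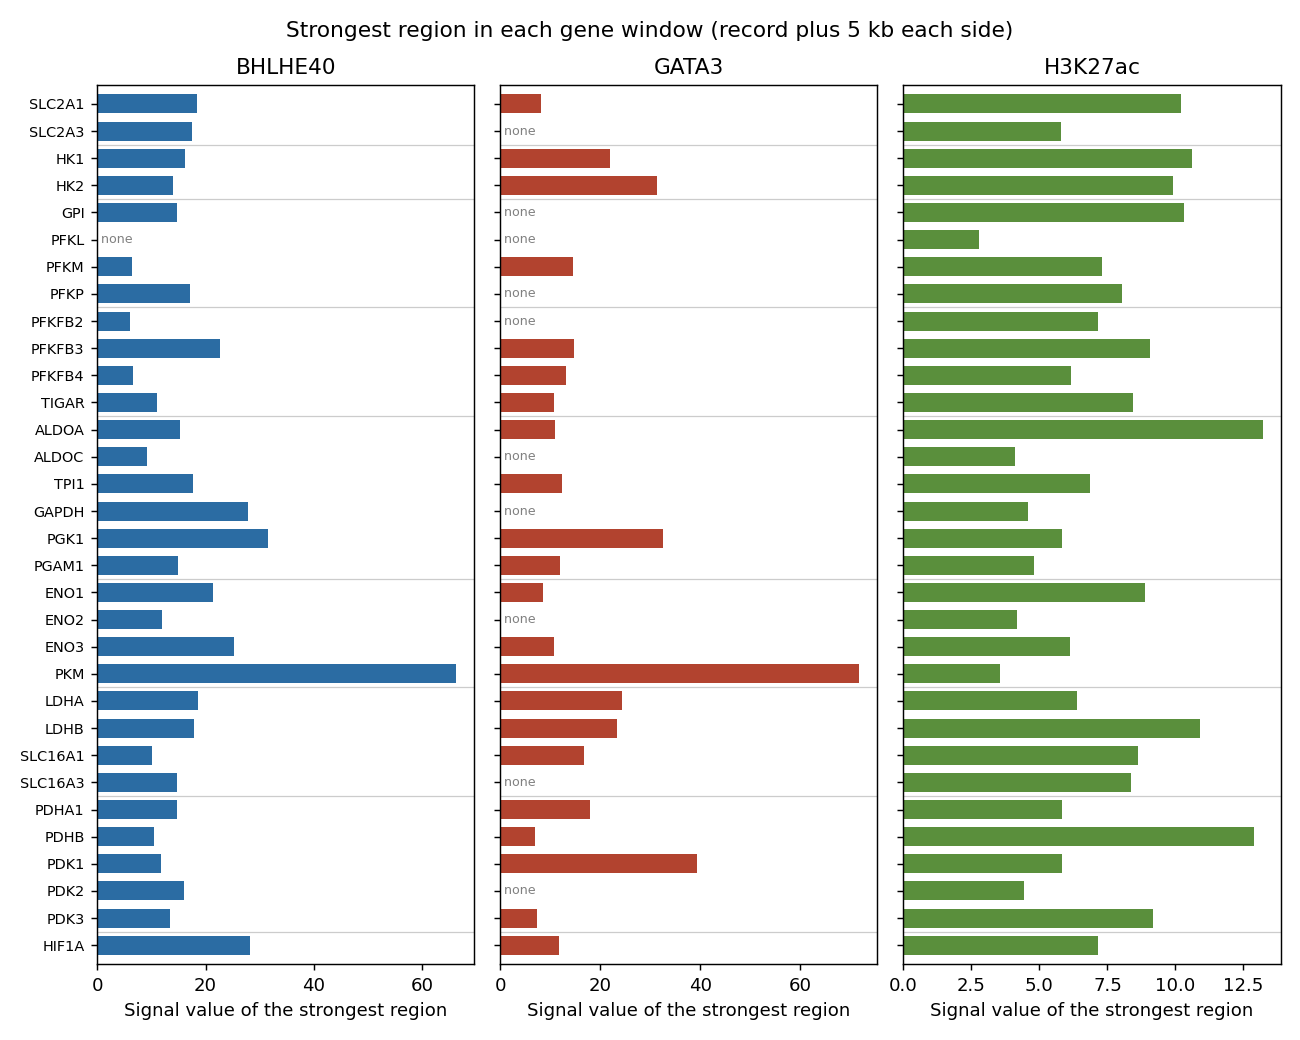
Strongest signal value (the authors' enrichment, unitless) of each list in each of the 32 gene windows ordered by role, with grey lines between roles and "none" where no region was listed. PKM is highest for GATA3 (71.9) and BHLHE40 (66.3), whereas ALDOA is highest for H3K27ac (13.2).

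By signal, regions from the strongest 10% of a list were more common at members than at protein-coding genes for BHLHE40 and H3K27ac. For GATA3, where 2 members had one, the share lay near the background and nothing is read from it. No such shares are given for genes with acetylated starts. The strongest 10% held 11357 H3K27ac regions, against 2621 for BHLHE40 and 2901 for GATA3, so the shares are not compared between lists. This cut by signal is not the −log10 q threshold that defines strong H3K27ac elsewhere in the text. A BHLHE40 region from the strongest 10% of the list was present at 6 of 32 members (18.8%), against 10.2% of protein-coding genes, and a GATA3 region at 2 (6.25%), against 8.28%. For H3K27ac it was 25 of 32 (78.1%), against 48.2%. The median of the strongest BHLHE40 signal, with 0 where none was listed, was 15.0 for members, 7.83 for all protein-coding genes and 12.3 for those with acetylated starts. For GATA3 these medians were 10.9, 0 and 9.26, and for H3K27ac 7.15, 5.21 and 7.89.

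The share of BHLHE40 regions that met GATA3 was lower at these genes than at protein-coding genes at large, a difference that was not tested. Of the 69 BHLHE40 regions in member windows, 21 overlapped a GATA3 region by at least 1 bp (30.4%, 95% Wilson interval 20.8% to 42.1%). Of the 19901 in all protein-coding windows, 49.7% did. The interval covers counting error only, and regions of 1 gene are not independent. Within 1 kb of any listed start the shares were 13 of 41 (31.7%) against 39.2%, and farther away 8 of 28 (28.6%) against 56.7%. The gap between the shares was thus wider away from listed starts, where some regions can lie at a start that is not listed. In the other direction, 23 of 45 GATA3 regions met BHLHE40 (51.1%, interval 37.0% to 65.0%), against 53.1%. That second share lies near its background. With summits at most 100 bp apart in place of overlap, the first share was 14.5% against 37.1% and the second 24.4% against 38.7%.

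The 23 GATA3 regions that met BHLHE40 lay at 19 members, a count for which no background is given. Their summits were 2 to 3914 bp from the BHLHE40 summit, with a median of 176 bp, and 11 were within 100 bp. Away from starts, such close pairs were those of HK1, HK2, PFKFB3, PGK1, LDHA, PDK1 and PDK3. H3K27ac overlapped 60 of the 69 BHLHE40 regions (87.0%), against 79.3%, and 27 of the 45 GATA3 regions (60.0%), against 53.9%.

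Windows also reached other genes. The windows of 21 of 32 members touched another protein-coding record, though no region lay in the windows of 2 members. Where the member has a listed start, the nearest listed start of any gene was the member's own for 46 of 64 BHLHE40, 30 of 41 GATA3 and 106 of 153 H3K27ac regions. A region in a window is therefore a position and not an assignment to the gene.

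Other genes of the pathway were counted in the same way, against the shares over all protein-coding genes given above (61.6% for BHLHE40, 48.0% for GATA3 and 78.4% for H3K27ac). Of 18 isozymes and transporters known mainly from other tissues, such as SLC2A2, PKLR and PDK4, 5 had BHLHE40, 4 GATA3 and 11 H3K27ac, and 0 of 16 had a BHLHE40 summit within 1 kb of a listed start, against 48.0%. Strong H3K27ac was at the start of 1 of the 16, PFKFB1, against 51.3% of protein-coding genes. The shares over all protein-coding genes are thus not a matched background here, and nothing is read from these counts about the isozymes. Of 13 further genes of glycolysis and pyruvate entry, such as the carrier subunits MPC1 and MPC2, 13 had BHLHE40, 8 GATA3 and 12 H3K27ac, and 12 of 12 had BHLHE40 within 1 kb of the start. Strong H3K27ac was at the start of 11 of those 12, and the BHLHE40 counts lie near the shares for such starts, 93.7% in the window and 86.5% within 1 kb. SLC2A6, another transporter of the family, had signals of 107 for GATA3 and 77.9 for BHLHE40, both above those of PKM. Of the 7 pentose phosphate genes 6 had BHLHE40, all but TKT, and 4 had GATA3. Of the 5 gluconeogenesis genes 3 had BHLHE40, 3 GATA3 and 3 H3K27ac.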

How the data were processed

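The analysis used 3 lists of regions in the narrowPeak layout, for GATA3, BHLHE40 and H3K27ac, each from 2 Ctrl_LV samples. Samples were grouped by their titles. Nothing in the labels says that the 2 samples of a group came from separate cultures. The submitters' processing notes name MACS2, bcl2fastq 2.20 and the build hg38, with no further role, and filters and the use of input are not given in the sources used here. The factor lists carry an irreproducible discovery rate (IDR) threshold of 0.05 per the file names deposited, so each holds regions whose ranks repeat between the samples, and the H3K27ac list was pooled. The deposited score runs on the IDR scale for the factors. The signal value is the authors' enrichment per region, and the −log10 q was deposited with it. All were used to rank or filter regions within 1 list, with no test.

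Windows were RefSeq GRCh38.p14 gene records plus 5 kb on each side, and a region counted with at least 1 bp inside. A listed start is one in the RefSeq promoter table, which gives several for many genes and none for SLC2A3, PFKFB2 and SLC16A1. The table lists a start for 15842 of the 20037 protein-coding records and has none on chromosome 8. Shares by distance leave out the genes without a listed start, and regions on chromosome 8 have no nearest start. A region counted as farther than 1 kb can thus lie at a start that is not listed. Strong H3K27ac means a −log10 q of at least 5. The 5 strongest members of each list were named, and sequences followed the order of BHLHE40 signal. Not every region of a gene is described, and for some genes the strongest region of a list is left out. The members and lists were chosen with earlier results of these data known, and the comparisons with genes that have an acetylated start were added after the data had been seen. In the list of isozymes of other tissues, 1 gene is not reported here. Counting was tested on simulated lists, where it matched a direct count in 20037 of 20037 windows. Python 3.11.15 with pandas 2.3.3, numpy 2.4.6, scipy 1.17.1 and matplotlib 3.10.9 was used. Alternatives changed the window, the distance to the start, the score or q threshold, the overlap rule and the motif.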

Additional observations from a re-analysis of the deposited data

How the results depend on the processing

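Over 53 alternatives of 12 results, 50 left the member value within the bounds set for calling it unmoved. An unmoved value does not mean an unmoved gap to the background. Against genes with strong H3K27ac at a start, GATA3 summits near a start counted as unmoved, at 11 of 27 members. Their background was 40.6% there and 22.1% over all protein-coding genes. With other windows or a stricter score, 31 of 32 members had a BHLHE40 region (background 56% to 65.4%) and 19 to 26 of 32 had GATA3 (40.3% to 53.4%). Counting only regions nearest to the gene's own start, these were 26 of 29 (50.7%) and 16 of 29 (38.5%). With another distance or a stricter score, 22 to 28 of 29 had a BHLHE40 summit near the start (42.8% to 53.8%). The 3 values that moved came from stricter or looser matching. With summits at most 100 bp apart in place of overlap, 14.5% of BHLHE40 regions in member windows met GATA3 and 24.4% of GATA3 regions met BHLHE40, both still under the background. With ACGTG on either strand in place of CACGTG, 18 of 29 members had a match. These criteria admit fewer pairs or more sequences at all genes, and the backgrounds under them were 37.1%, 38.7% and 28.5%. The cause of the shifts at members was not tested. Of the alternatives, 7 were added after seeing the data. No paired analysis was possible because the lists hold no values per sample. Refits without a replicate could not be made for that reason and were not run. Depth limits the result in that a region missing from a list was not detectable under its threshold, and is not shown to be absent.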

Other observations

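The order of H3K27ac regions depended on which deposited value was read. By −log10 q the members were led by ALDOA (259), ENO3 (171), ENO1 (151), LDHB (85.5) and SLC2A1 (81.4), whereas by signal they were led by ALDOA (13.2), PDHB (12.9), LDHB (10.9), HK1 (10.6) and GPI (10.3). The ENO3 region with the high −log10 q had a signal of 6.11. Its summit lay outside the gene record, 825 bp from the start of PFN1 and 2847 bp upstream of that of ENO3. The GAPDH region with the highest −log10 q had 64.7 at a signal of 4.6. The cause of the different orders was not tested.

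Of 11 genes of the hypoxia and glucose response 7 had BHLHE40, 4 GATA3 and 9 H3K27ac. Over all protein-coding genes the shares were 61.6%, 48.0% and 78.4%, so nothing is read from these counts about the group. EPAS1, the HIF2 alpha subunit, had 6 GATA3 regions, of signal up to 47.3, and 5 BHLHE40 regions, of signal up to 31.7, without strong H3K27ac at a listed start. TXNIP, an inhibitor of glucose uptake, had GATA3 of 36.4 and no BHLHE40 region, while its relative ARRDC4 had BHLHE40 of 26.6 and GATA3 of 7.67. No region of any list was present at EGLN3 or MLXIPL.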
